A study of Homo sapiens with 12 samples.

Results

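Histone genes were followed across 12 one-colour Agilent arrays of human lung adenocarcinoma cell lines. A gene belonged to the set when its name on the array began with HIST1H to HIST4H, H1F, H2AF, H2BF or H3F. Of 88 such genes on the array, 83 passed the filter, that is, they had a probe well above background on at least 3 arrays, out of 24857 genes tested in all. The 5 that did not pass were H1FOO, H2BFWT, HIST1H2BA, HIST2H2BA and HIST2H4A. The 83 comprised 63 genes of the histone clusters, 10 replacement variants, 7 testis-type genes, 2 pseudogenes (HIST1H2APS1 and H2BFXP) and H1FX-AS1, an antisense RNA that the name rule caught and that encodes no histone. Of the 63 clustered genes, 52 lay on chromosome 6, 10 on chromosome 1 and 1 on chromosome 12.

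The study asked which transcripts miR-197 changes in lung cancer cells, and 1 of its lines carries acquired cisplatin resistance. A549, PC14 and PC14CDDP, the cisplatin-resistant derivative of PC14, were each transfected at 25 nM with premiR-197 (a synthetic precursor that raises the miRNA), with its negative control NC, with LNA-miR-197 (a locked nucleic acid inhibitor of the miRNA) or with its control LNA-NC. Each line and transfection gave 1 array, so the 3 lines served as the replicates of a transfection and the 4 transfections as paired replicates of PC14CDDP against PC14. All cells were transfected, none was an untreated control, and PC14CDDP is a single resistant line, so differences from PC14 hold for that line only. The 4 PC14 arrays lay in row 1 and the 4 PC14CDDP arrays in row 2 of 1 slide, so line and row cannot be told apart. The labels do not say whether the arrays of 1 line came from separate cultures, so the p-values measure the spread between these arrays. A level below is the log2 of a probe's signal after scaling each array to its 75th percentile, and a log2 ratio is the difference between a pair of such levels. The arrays carried 55.8% to 63.1% of probes well above background and no saturated spot. KRT7, KRT8, KRT18 and KRT19, epithelial keratins, were above background on every array. EPCAM and CDH1 were above background on the 4 A549 arrays and on no PC14CDDP array, and the lung lineage factor NKX2-1 on all PC14 and PC14CDDP arrays and on no A549 array. The leukocyte markers PTPRC and CD68, the endothelial markers VWF and CDH5 and the fibroblast marker COL1A1 were read above background on every array. The fibroblast markers COL1A2 and DCN were on none, and THY1 was on the 4 A549 arrays.

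DNA is wound around an octamer of the core histones H2A, H2B, H3 and H4, and the linker histone H1 binds where the DNA enters and leaves it. The clustered genes are transcribed in S phase, and their mRNAs normally end in a conserved stem-loop, bound by SLBP, in place of a poly(A) tail. Replacement variants such as H2A.Z and H3.3 are made from ordinary polyadenylated mRNAs throughout the cell cycle. The labelling kit named in the labels amplifies RNA from the poly(A) tail, so for clustered genes the arrays may read mainly the polyadenylated fraction of their RNA. Its part in the results was not tested.

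The stem-loop of clustered-gene mRNAs, a seed match in 1 probe and the miRNA itself are shown as a description. No comparison below was computed from them. The mature miRNA, from RefSeq (GRCh38.p14, chr1:109598940-109598961, plus strand), has its seed, bases 2 to 8, in capitals.
hsa-miR-197-3p: uUCACCACcuucuccacccagc
The complement of that seed, GTGGTGA, was searched on the sense strand of the probes and stood in 1 of 111 histone probes (0.901%) and in 258 of 50599 probes in all (0.51%). The 1 histone probe was that of H2AFV, the gene of the second H2A.Z protein, starting at base 710 of its transcript (hg19, chr7:44873900-44873922, minus strand), with the match in capitals.
H2AFV: cttttcatGTGGTGAcagttgtg
The stem-loop, in capitals, stood in 4 histone probes and in 5 probes of the whole array, which places these 4 at the 3′ end of the replication-type mRNA (hg19, plus strand). They lay at chr6:26184433-26184458, chr1:149824662-149824685, chr6:27776420-27776445 and chr6:27778289-27778314, in that order.
HIST1H2BE: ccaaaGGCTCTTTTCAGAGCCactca
HIST2H3A: caaaaGGCTCTTTTCAGAGCCacc
HIST1H2AI: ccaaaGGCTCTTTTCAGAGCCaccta
HIST1H3H: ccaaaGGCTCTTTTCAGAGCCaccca
All 4 carried the same 16 bases, whichever core histone they encode.

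The promoters separated the clustered genes by histone type. RefSeq promoters, which run from 250 bases before to 50 after a gene's start, were given for 74 of the 83 genes. The octamer ATTTGCAT, the motif bound by the factor encoded by POU2F1, was searched on both strands and stood in the promoters of 13 of 17 clustered H2B genes and 10 of 14 clustered H2A genes. It stood in 1 of 10 H3 genes and in none of 12 H4 or 5 H1 genes, against 1.77% of all promoters. CCAAT, which was searched in the same way and can share end letters with the other motifs, stood in every clustered H1, H2A, H2B and H3 gene with a promoter but in 3 of 12 H4 genes, against 34.6% of all promoters. TATAAA did not separate the types in this way, with 3 of 5 H1, 10 of 14 H2A, 11 of 17 H2B, 8 of 10 H3 and 7 of 12 H4 genes, against 11.5% of all promoters. The octamer, in capitals, is shown for a pair of H2B genes that were lower in PC14CDDP and for HIST1H2BF, the H2B gene that was higher (GRCh38.p14, chr6:27132827-27132850 minus strand, chr6:27146889-27146912 minus strand and chr6:26199397-26199420 plus strand).
HIST1H2BJ: ttcaccttATTTGCATaagcgatt
HIST1H2BK: ttcaccttATTTGCATgagaggtc
HIST1H2BF: atcacctaATTTGCATaccacagg
The motif was thus present in genes that went either way, and a match is a description of these letters only.

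The probes of clustered genes share sequence. The used probes of 22 of the 83 genes shared a run of at least 20 of their 60 bases with the probe of another histone gene, the longest being 31 bases between HIST1H2BL and HIST1H2BO. The array's own annotation listed more than 1 RefSeq gene for 9 of the 83 probes, among them those of HIST1H4K, HIST2H2BF, HIST2H3A, HIST2H3D and H3F3A. Values of clustered genes are therefore those of the probe named for the gene, and related genes do not count as independent measurements.

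PC14CDDP differed from PC14 by histone type. H1 and H2B genes were mostly lower in the resistant line, H3 genes mostly higher, H2A genes mostly lower, and H4 genes fell into a higher and a lower group. By limma with Benjamini-Hochberg adjustment over all genes, 55 of the 83 histone genes passed an adjusted p of 0.05, against 48.3% of all genes tested. Of these, 34 were lower and 21 higher, where 23.6% of all genes were lower and 24.7% higher. In 22 genes every PC14CDDP array lay below every PC14 array and in 17 every one lay above, where 17.6% and 18.4% of all genes did so and 36.0% did either. The median log2 ratio was -0.34 over the clustered genes, 0.13 over the variants and 0.03 over all genes. Most histone probes are bright, and among the genes above background on all 12 arrays 60 histone genes and 56.7% of all genes passed.

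**Figure D1:**
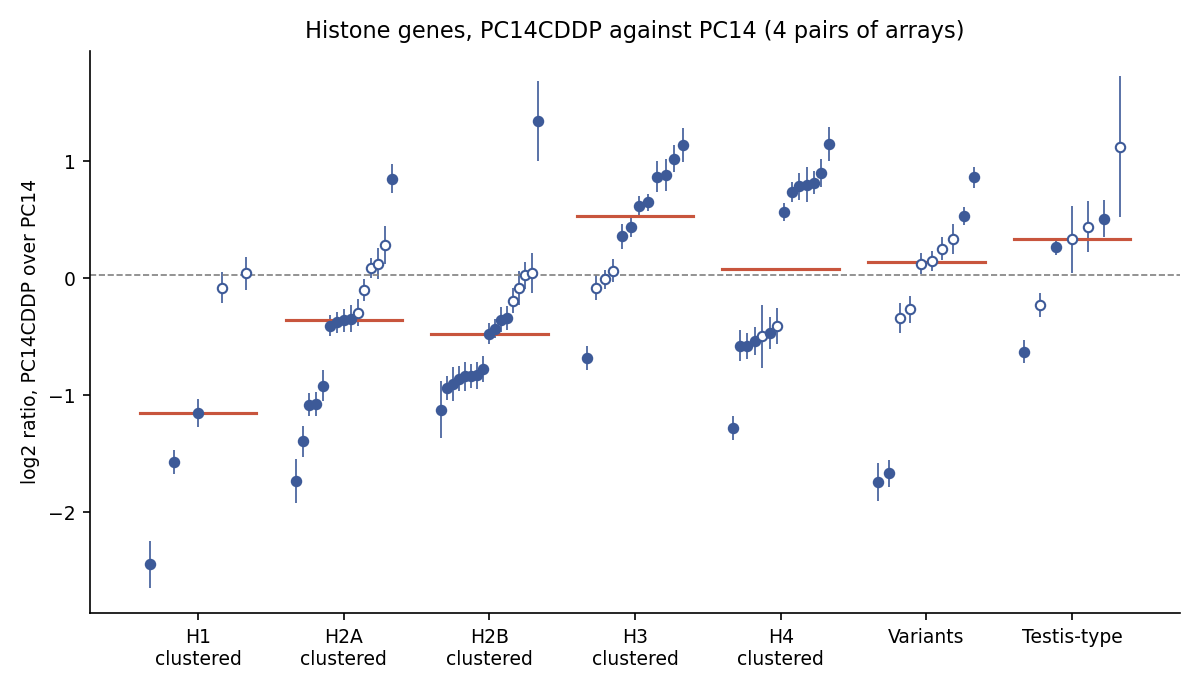
Each point is the mean log2 ratio of PC14CDDP over PC14 for 1 histone gene (y axis, with the SE of the fit as bars, 4 pairs of arrays), ordered within its histone type (x axis). Filled points passed an adjusted p of 0.05, red lines are medians, and the dashed line is the median of all genes. Clustered H1 and H2B medians lie at -1.15 and -0.48, H3 at 0.53, and H4 genes form a higher and a lower group.

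The largest fall was that of a linker histone. HIST1H1C, which encodes H1.2 and is one of the clustered genes known to give polyadenylated RNA, had levels of 7.97, 7.85, 8.12 and 8.04 in PC14 after premiR-197, NC, LNA-miR-197 and LNA-NC. In PC14CDDP, in the same order, they were 5.78, 4.92, 6.20 and 5.30. The ranges were far apart, and the resistant line was lower by 2.44 on the log2 scale, or 5.44-fold (SD 0.48, n = 4, adjusted p = 3.5e-05). In A549 the 4 levels, from 4.40 to 5.03, were lower than in PC14 by 9.89-fold and overlapped those of PC14CDDP. HIST1H1B fell by 1.57 (SD 0.21, adjusted p = 1.0e-05) and HIST1H1E by 1.15 (SD 0.28, adjusted p = 0.00011). HIST1H1D, at 0.04 (SD 0.41), and HIST1H1A, at -0.08 and above background on only 7 arrays, did not pass. The H1 genes outside the clusters divided as well. H1F0, the variant that accumulates in cells that stop dividing, was at 2.46, 3.08, 2.76 and 3.11 in PC14 and at 0.64, 1.49, 0.81 and 1.79 in PC14CDDP, in the same order of transfections. Its ratio was -1.67 (SD 0.28, adjusted p = 1.4e-05), with no overlap, whereas H1FX was at -0.34 (SD 0.13, adjusted p = 0.059).

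Of 17 clustered H2B genes, 12 were lower in PC14CDDP, 1 was higher and 4 did not pass. HIST1H2BK, read by a probe at base 660 of its long polyadenylated transcript, was at 6.75, 6.06, 6.23 and 6.26 in PC14 and at 5.49, 4.47, 5.49 and 5.36 in PC14CDDP. Every resistant array lay below every PC14 array, and the ratio was -1.12 (SD 0.38, adjusted p = 0.0052). Its other probe, at base 141, gave -0.81 (SD 0.14) and is listed for 4 genes. HIST1H2BJ, HIST1H2BM, HIST1H2BD, HIST1H2BI, HIST1H2BG, HIST1H2BC and HIST2H2BF were lower by 0.94 to 0.78. HIST1H2BD stood at 4.55, 3.94, 4.11 and 3.95 in PC14 and at 3.57, 2.94, 3.45 and 3.16 in PC14CDDP, a ratio of -0.86 (SD 0.17). The exception was HIST1H2BF, which was higher by 1.34 (SD 0.51, adjusted p = 0.012). Its levels of 0.65, 1.00, -0.60 and 0.50 in PC14 and 2.66, 2.30, 0.18 and 1.79 in PC14CDDP overlapped, because both lines were lowest after LNA-miR-197, and within each transfection PC14CDDP was the higher. Of the 7 clustered genes known to give polyadenylated RNA, 6 were lower, and HIST2H2BE did not pass by its brighter probe, at base 72, with 0.02 (adjusted p = 0.89). Its other probe, at base 1109 and above background on 10 arrays, gave -1.97 (SD 0.95), below 0 after each of the 4 transfections. The 6 include HIST1H2AC, whose probes disagreed as described next.

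Among the 15 clustered H2A genes, 9 were lower and 1 was higher. HIST2H2AA4 fell by 1.73 (SD 0.31), HIST1H2AI by 1.40 (SD 0.34), HIST3H2A by 1.08 (SD 0.14) and HIST1H2AL by 1.08 (SD 0.23), with adjusted p between 6.3e-05 and 0.00015. HIST3H2A lay between -0.55 and -0.05 in PC14, between -1.59 and -1.32 in PC14CDDP and between -3.22 and -3.01 in A549, so the 3 lines did not overlap. HIST2H2AC was the gene that rose, by 0.85 (SD 0.25, adjusted p = 0.00068). HIST1H2AC, which fell by 0.36 at base 88 (SD 0.13, adjusted p = 0.019), had a second probe at base 30 that gave 0.45 (SD 0.22). Its direction thus depends on the probe.

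**Figure D2:**
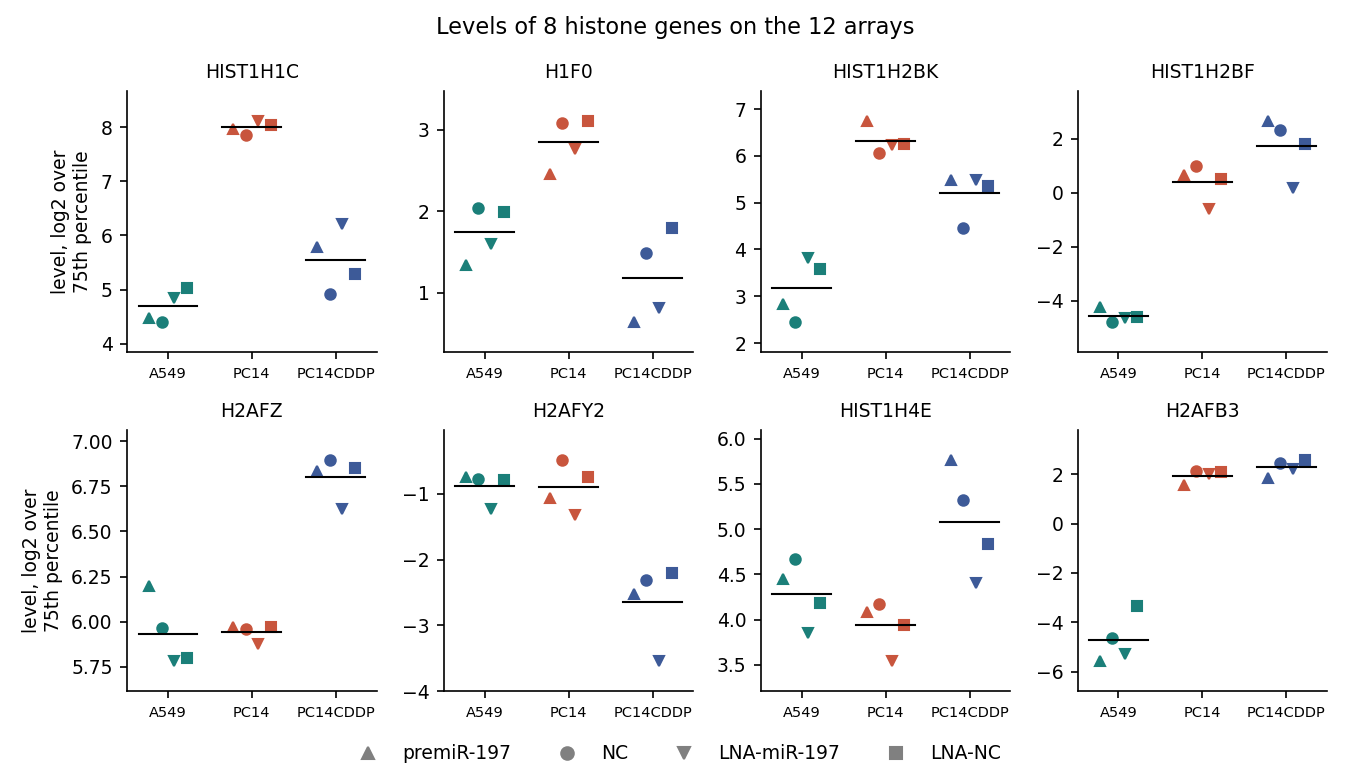
Levels of 8 histone genes (y axis, log2 relative to the array's 75th percentile) on the 4 arrays of each line (x axis), with 1 symbol per transfection and the mean as a line. HIST1H1C in PC14 lies between 7.85 and 8.12, above both other lines, while H2AFZ is highest in PC14CDDP and HIST1H2BF and H2AFB3 are lowest in A549.

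H3 genes went the other way. Of 12 clustered H3 genes, 8 were higher in PC14CDDP and 1, HIST1H3I, was lower by 0.68 (SD 0.14, adjusted p = 0.0009). HIST1H3F rose by 1.14 (SD 0.33, adjusted p = 0.00031). It stood at 3.64, 3.34, 2.97 and 3.23 in PC14 and at 4.79, 4.94, 3.88 and 4.12 in PC14CDDP, without overlap. HIST1H3D rose by 1.02 (SD 0.30), HIST1H3J by 0.88 (SD 0.34), HIST1H3A by 0.65 (SD 0.10) and HIST2H3A by 0.62 (SD 0.20). HIST1H3H was the clearest disagreement between probes. Its probe at base 199, inside the coding part and sharing 30 bases with the HIST1H3F probe, rose by 0.87 (SD 0.37, adjusted p = 0.00081). Its probe at base 413, which holds the stem-loop printed above, fell by 1.82 (SD 0.33) and was lower in PC14CDDP after each of the 4 transfections, with ratios from -1.41 to -2.17. The mean of the 2 probes was -0.48 (adjusted p = 0.014), the opposite direction from the brighter probe alone.

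The 14 clustered H4 genes separated into 7 that were higher and 5 that were lower. HIST1H4E rose by 1.15 (SD 0.38, adjusted p = 0.00033), from 4.09, 4.17, 3.54 and 3.94 to 5.77, 5.32, 4.40 and 4.84. HIST1H4D, HIST1H4B, HIST1H4A, HIST4H4, HIST1H4L and HIST1H4C rose by 0.90, 0.82, 0.80, 0.78, 0.74 and 0.56. HIST1H4J fell by 1.28 (SD 0.26, adjusted p = 3.1e-05), from 3.86, 4.01, 3.59 and 3.97 to 2.90, 2.77, 2.23 and 2.39. HIST1H4K, HIST2H4B, HIST1H4F and HIST1H4I fell by 0.58, 0.58, 0.54 and 0.47. The probes of these last 4 start between base 137 and base 175 of the transcript. Each shares a run of 22 to 26 bases with another H4 probe, so these 4 do not count as independent measurements. The probe of HIST1H4K is listed for 3 genes and that of HIST2H4B for 2. Of the 7 that rose, 6 were read by probes starting between base 272 and base 299, and so was HIST1H4J, which fell. The part of the probe's position in these directions was not tested. A second HIST1H4K probe, at base 292, fell by 1.78 (SD 0.26), more than the shared one. A second HIST1H4L probe, at base 176, rose by 0.45 (SD 0.38). Chromosome 6 thus held both H4 genes that rose and H4 genes that fell.

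**Figure D3:**
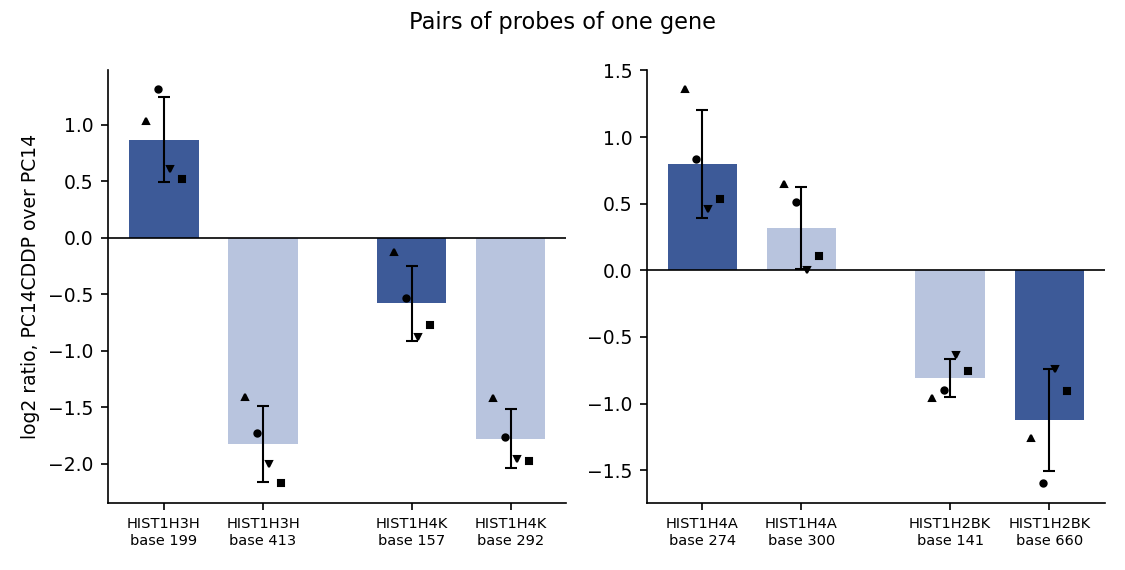
Mean log2 ratio of PC14CDDP over PC14 (bars, y axis, with SD over 4 transfections; points are the single transfections with the symbols of the plot of levels) for pairs of probes of 4 genes, named by the base of the transcript at which they start. Dark bars are the probes used for the gene, and HIST1H3H is at 0.87 by one probe and at -1.82 by the other.

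Among the 10 replacement variants, 2 were higher in PC14CDDP, 2 were lower and 6 did not pass. H2AFZ, the gene of the major H2A.Z protein that marks promoters, was at 5.97, 5.96, 5.88 and 5.97 in PC14 and at 6.84, 6.90, 6.63 and 6.85 in PC14CDDP. The arrays of a line barely differed, and the rise was 0.86 (SD 0.08, adjusted p = 0.00012). H3F3A, 1 of 2 genes for H3.3, rose by 0.53 (SD 0.10, adjusted p = 0.00057), and its other 3 probes gave 0.38 to 0.65. H3F3B, the other H3.3 gene, was at 0.25 (SD 0.09, adjusted p = 0.06), although its ranges in the 2 lines did not overlap. That probe is listed for 2 genes, and the dimmer probe at base 2293, listed for 1, gave 0.89 (SD 0.17), above 0 after each transfection. H2AFY2, which encodes macroH2A2, was at -1.06, -0.48, -1.32 and -0.75 in PC14 and at -2.52, -2.32, -3.54 and -2.20 in PC14CDDP, a fall of 1.74 (SD 0.37, adjusted p = 6.9e-05). H2AFY, the gene of macroH2A1, was at 0.12 (SD 0.17, adjusted p = 0.31). H2AFX, whose protein is phosphorylated at DNA breaks, was at -0.27 (SD 0.14, adjusted p = 0.094) and H2AFV at 0.33 (SD 0.12, adjusted p = 0.059). H2AFJ was at 0.15 (SD 0.16, adjusted p = 0.18), and its much dimmer probe at base 1016 gave 1.22 (SD 1.00), above 0 after each transfection.

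Of the 7 testis-type genes that passed the filter, HIST1H2AA rose by 0.51 (SD 0.27, adjusted p = 0.028), HIST3H3 rose by 0.27 (SD 0.05, adjusted p = 0.019) and H2BFM, on chromosome X, fell by 0.63 (SD 0.19, adjusted p = 0.00098). The HIST3H3 probe was bright, with mean levels of 6.21 in PC14 and 6.48 in PC14CDDP. The medians of the 7 genes were -2.62 and -2.11 in the same lines. H1FX-AS1 fell by 0.67 (SD 0.51, adjusted p = 0.022).

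The other genes of histone supply were described from lists, where 24.7% of all genes tested were higher in PC14CDDP and 23.6% lower. Of 18 S phase genes, 12 were higher in PC14CDDP, 1 was lower and 5 did not pass, with a median of 0.42. RRM2, a subunit of ribonucleotide reductase, rose by 1.20 (SD 0.36, adjusted p = 0.00023), and MCM5, a helicase subunit, fell by 0.57 (adjusted p = 0.0073). Of 10 genes of histone transcription, 5 were higher and none lower, among them CASP8AP2 at 0.68, CCNE2 at 0.54 and POU2F1 at 0.33. Of 12 genes of histone mRNA 3′ end processing and decay, 5 were higher and 1 lower. SLBP, which binds the stem-loop, rose by 0.37 (adjusted p = 0.011), CSTF2 rose by 0.69 and SYMPK fell by 0.51. The shares of the transcription and the 3′ end processing lists that passed lay near the 48.3% of all genes. Of 24 chaperone and exchange genes, 9 were higher and 7 lower. VPS72, a subunit that binds H2A.Z, rose by 0.79 (adjusted p = 0.00013), and DAXX, an H3.3 chaperone, rose by 0.65, while its partner ATRX fell by 0.66.

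A549 was compared with PC14 as a description only, since the 4 A549 arrays were on another slide. In 49 of 83 histone genes every A549 array lay below every PC14 array and in 13 every one lay above, where 27.8% and 30.7% of all genes did so and 58.5% did either. H2B genes were the most one-sided, with 15 of 17 lower in A549 and a median difference of -2.15. HIST1H2BF was at -4.23, -4.78, -4.64 and -4.60 in A549, 30.9-fold lower than in PC14. The probes of the testis-type H2A.B genes H2AFB2 and H2AFB3 on chromosome X, the first of them listed for 3 genes, were 33.1-fold and 101-fold lower in A549 than in PC14, and all arrays of the 3 lines read them above background. Another HIST1H2AC probe, for a longer transcript at hg19 chr6:26138822-26138881, behaved in the opposite way. It was well above background on the 4 A549 arrays, with a mean level of -0.14, and on none of the 8 other arrays. A549 was at least 75.5-fold higher than PC14, taken against the lowest signals well above background. The probe was not the one used for the gene and passed the filter only through A549, so the filter itself favoured this contrast. Line and slide cannot be told apart here.

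No histone gene passed the test after premiR-197. By limma 0 of 83 passed against NC, where 0.217% of all genes did (0.0845% higher and 0.133% lower), 16 had an unadjusted p under 0.05, where 16.5% of all genes did, and the methods' t-test called 0 after adjustment. The ratio farthest from 0 belonged to H2AFV, whose probe holds the seed match. After NC its levels were 6.34 for A549, 6.46 for PC14 and 6.83 for PC14CDDP, and after premiR-197, in the same order of lines, 5.92, 5.43 and 5.71. All 3 lines were lower, the groups did not overlap, and the ratio was -0.86 (SD 0.38, adjusted p = 0.069), or 1.81-fold. Its other probe, at base 2710 of another transcript variant and much dimmer, gave -0.16. After LNA-miR-197 the H2AFV ratio to LNA-NC was 0.36, -0.07 and 0.20, a mean of 0.16 (adjusted p = 0.53). The difference between both comparisons was -1.02 (SD 0.27, adjusted p = 0.089), lower in 3 of 3 lines. H1F0 was at -0.72 (SD 0.11, adjusted p = 0.079), with -0.70, -0.62 and -0.85 in the 3 lines. H2AFJ was at -0.46 (SD 0.05, adjusted p = 0.089), while its much dimmer probe at base 1016 gave 0.0003 (SD 0.34). In fits that called 2.08% to 2.5% of all genes, these 3 variants passed with adjusted p of 0.013 to 0.041 under normexp background correction, under a prior with trend, or when only genes above background on all 12 arrays were tested.

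**Figure D4:**
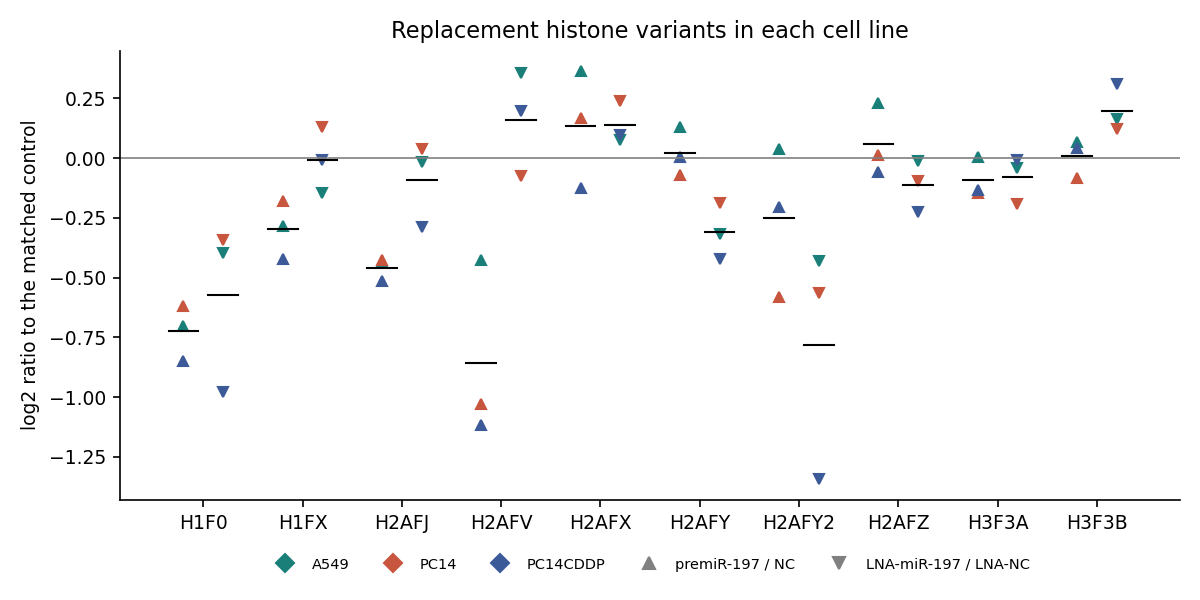
Log2 ratio of each replacement variant (x axis) to its matched control (y axis) in the 3 lines (colours), after premiR-197 (upward triangles) and LNA-miR-197 (downward triangles), with the mean as a line. H2AFV, H1F0, H2AFJ and H1FX are below 0 in all 3 lines after premiR-197, and H1F0, H2AFY2, H2AFY, H2AFZ and H3F3A in all 3 lines after LNA-miR-197.

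The clustered genes had a median ratio of 0.13 after premiR-197 against 0.03 for all genes. Of the 63, 56 lay above 0, where 13668 of all 24857 genes did. In A549 the clustered median was 0.042 against 0.037 for all genes. It was 0.16 against 0.029 in PC14 and 0.36 against 0.024 in PC14CDDP. H2B genes had the highest median, 0.29, and 10 of the 17 had an unadjusted p under 0.05, where 16.5% of all genes did. HIST1H2BK was highest at 0.70 (SD 0.32, adjusted p = 0.27), followed by HIST2H2BF at 0.52, HIST1H2BM at 0.51 and HIST1H2BG, HIST1H2BI and HIST1H2BD at 0.46. Each of these was above 0 in all 3 lines. HIST1H1C was at 0.35 (SD 0.45), HIST2H2BE at 0.13, HIST1H2AC at 0.08 and HIST1H4C at 0.03. For the H2B genes the median was 0.45 in PC14, 0.42 in PC14CDDP and 0.10 in A549, the lowest of the 3 lines. No list gene of histone transcription, 3′ end processing, chaperones or S phase passed. H2AFB3, at -0.70 (SD 0.21, adjusted p = 0.35), and H1FX-AS1, at -0.63 (SD 0.60), were below 0 in all 3 lines without passing. Of the other variants, H1FX was at -0.30, H2AFY2 at -0.25, H3F3A at -0.09, H3F3B at 0.01, H2AFY at 0.02, H2AFZ at 0.06 and H2AFX at 0.13, with adjusted p of 0.37 or more.

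LNA-miR-197 against LNA-NC gave 4 histone genes that passed, all lower, where 7.66% of all genes passed, 3.9% lower and 3.75% higher, and 14 histone genes (16.9%) had an unadjusted p under 0.05, where 27.2% of all genes did. H2BFM, a testis-type H2B gene, stood after LNA-NC at -4.10 (A549), -2.57 (PC14) and -2.95 (PC14CDDP). After LNA-miR-197 they were -5.16, -3.25 and -3.94. Its ratio was -0.91 (SD 0.20, adjusted p = 0.015), lower within every line although the groups overlapped across lines. For H2BFM LNA-NC against NC was at 0.62 (SD 0.18, adjusted p = 0.06) and LNA-miR-197 against NC at -0.29 (SD 0.05, adjusted p = 0.11). HIST1H3B went from 4.38, 5.54 and 5.40 to 3.86, 4.98 and 4.93, a ratio of -0.52 (SD 0.05, adjusted p = 0.036). H1F0 went from 1.99, 3.11 and 1.79 to 1.59, 2.76 and 0.81, a ratio of -0.57 (SD 0.35, adjusted p = 0.042), and the -0.72 of premiR-197 against NC given above had the same sign. H2AFY2 went from -0.80, -0.75 and -2.20 to -1.23, -1.32 and -3.54, a ratio of -0.78 (SD 0.49, adjusted p = 0.046), the largest part of it in PC14CDDP. None of the 4 passed when A549, PC14 or PC14CDDP was left out, nor when only the 6 arrays compared were fitted, but these smaller fits called at most 2 genes of all 24857. With 1 line left out the ratio of HIST1H3B stayed between -0.54 and -0.50 and that of H2BFM between -1.03 and -0.84, while H1F0 ranged from -0.69 to -0.37 and H2AFY2 from -0.95 to -0.50, both nearest to 0 without PC14CDDP.

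The highest ratios after LNA-miR-197 among genes above 0 in all 3 lines did not pass. HIST1H1T, a testis linker histone, was not well above background on any LNA-NC array and was above it on 2 of 3 LNA-miR-197 arrays. It was at least 2.35-fold higher, with an adjusted p of 0.074. HIST1H1T was above background on 3 arrays in all, 2 of LNA-miR-197 and 1 of NC. Without the LNA-miR-197 arrays it would not have passed the filter, so the filter itself favoured this ratio. HIST1H1A was at 0.61 (SD 0.27, adjusted p = 0.052), HIST1H2BJ at 0.22, H3F3B at 0.20 and HIST1H2BD at 0.18. Among those lower in all 3 lines without passing, HIST1H2BF was at -0.92 (SD 0.80) and H2AFB3 at -0.80 (SD 1.01). The clustered genes had a median of -0.09 and the variants of -0.09, against -0.02 for all genes. H2AFY was at -0.31 (SD 0.12, adjusted p = 0.10), H2AFX at 0.14, H2AFZ at -0.11 and H3F3A at -0.08, none of which passed. Of the list genes, UPF1 at 0.82, ZNF473 at 0.65, UBN1 at 0.55 and DAXX at 0.34 rose, and MMS22L at -0.79, CABIN1 at -0.61, POLA1 at -0.61 and SYMPK at -0.61 fell, with adjusted p of 0.023 to 0.046. ZNF473 encodes a zinc finger protein of the histone pre-mRNA cleavage complex, and UPF1 takes part in histone mRNA decay.

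The count of histone genes that passed depended on the control. LNA-NC against NC gave no histone gene that passed by limma, where 0.652% of all genes did (0.475% higher and 0.177% lower), but 27 of the 83 (32.5%) had an unadjusted p under 0.05, where 13.7% of all genes did. All 12 clustered H3 and all 14 clustered H4 genes were below 0, where 14187 of all 24857 genes were. The H3 and H4 medians were -0.37 and -0.26 against -0.04 for all genes, while the median of the 17 H2B genes was 0.04. HIST2H3A was at -0.49 (SD 0.20, adjusted p = 0.093), HIST1H4A at -0.49 (SD 0.15), HIST1H3D at -0.48 (SD 0.33) and HIST1H2BE at -0.47 (SD 0.15). HIST2H2AA4 at 0.79 (SD 0.16), HIST1H2BK at 0.74 (SD 0.49) and HIST1H1C at 0.40 (SD 0.23) lay above 0 in all 3 lines. When NC was used as the control of LNA-miR-197, 27 of 83 histone genes passed, 25 lower and 2 higher, where 14.8% of all genes passed, 7.81% lower and 7.0% higher. This comparison shares the NC arrays with LNA-NC against NC. HIST1H3B led with -0.90 (SD 0.09, adjusted p = 0.0076), then HIST1H2BE at -1.02 (SD 0.35), HIST1H2AL at -0.69 (SD 0.16), HIST1H2AJ at -0.56 (SD 0.11) and HIST1H3D at -0.68 (SD 0.28). By type, 7 of 12 H3 genes, 5 of 14 H4 genes, 6 of 15 H2A genes and 1 of 17 H2B genes were lower. The 2 that were higher were HIST2H2AA4 at 0.91 (SD 0.54, adjusted p = 0.032) and HIST1H1A at 0.79, which no NC array read above background and which was at least 1.58-fold higher. Of the 18 S phase genes, 2 were lower in the same comparison, POLA1 at -0.70 and CDC45 at -0.49. Each transfection had the same column of the slide in every line, so the transfection and the place on the slide cannot be told apart.

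**Figure D5:**
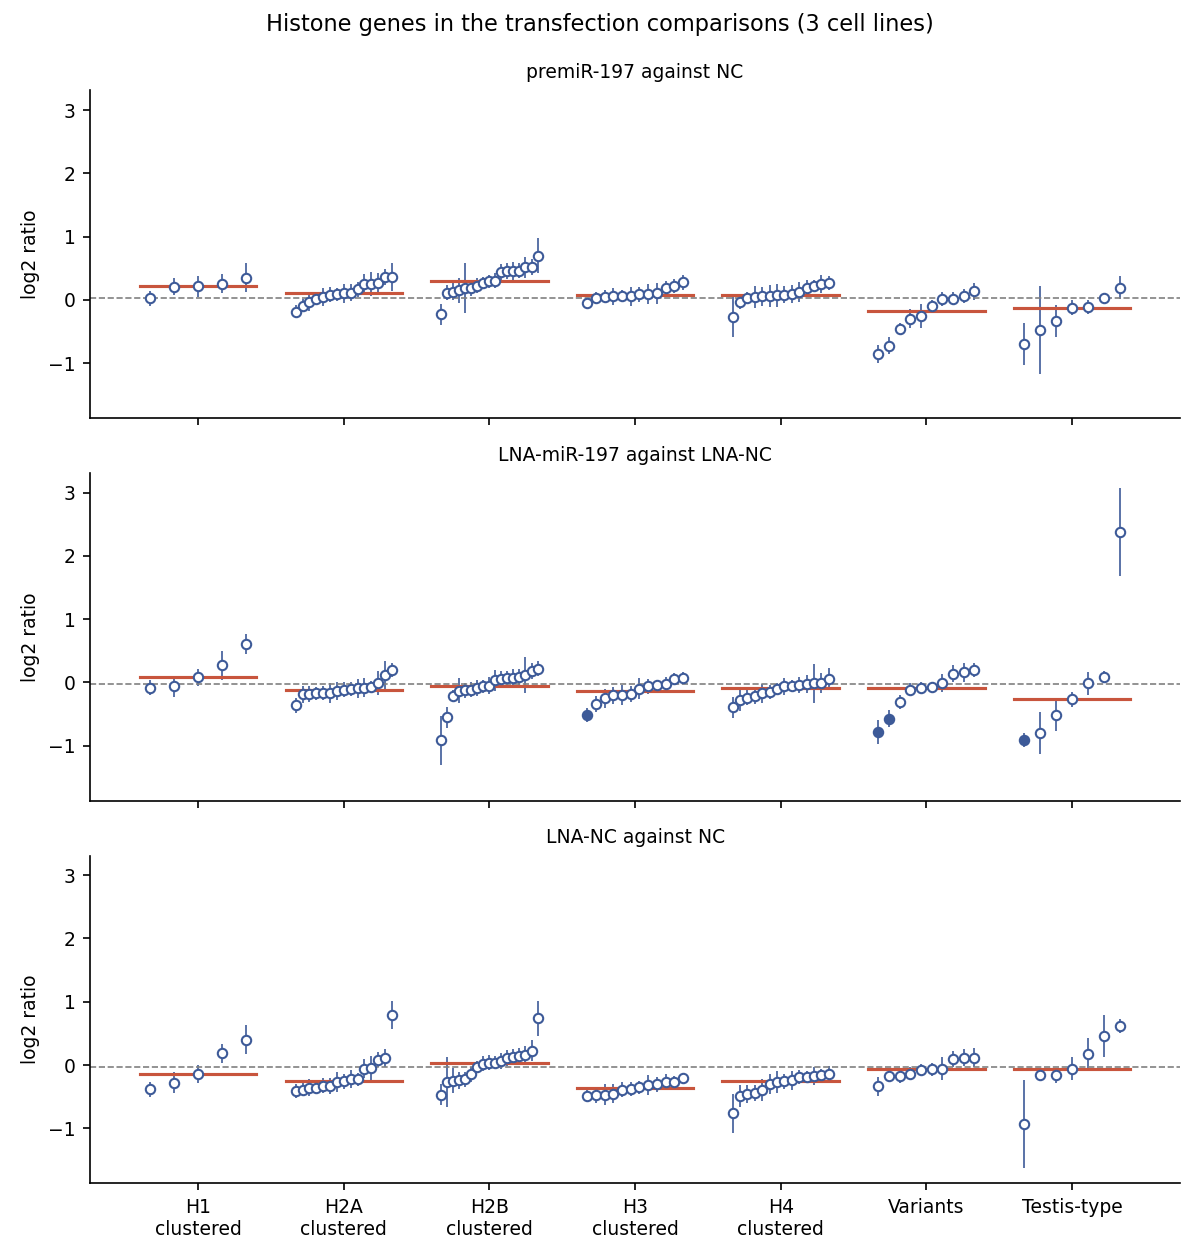
Mean log2 ratio of each histone gene (y axis, with the SE of the fit as bars, 3 cell lines) by histone type (x axis) in the 3 transfection comparisons. Filled points passed an adjusted p of 0.05, red lines are medians and the dashed line is the median of all genes. Only 4 points, all in LNA-miR-197 against LNA-NC, are filled, and all clustered H3 and H4 points lie below 0 in LNA-NC against NC.

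The direct comparison of both miR-197 effects, the premiR-197 ratio minus the LNA-miR-197 ratio, gave no histone gene that passed by limma, where 0.109% of all genes did (0.0443% higher and 0.0644% lower), and 15 (18.1%) with an unadjusted p under 0.05, where 18.2% of all genes had one. All 17 H2B genes lay above 0, where 13377 of all 24857 genes did. Their median was 0.35 against 0.036 for all genes, with 0.11 in A549, 0.52 in PC14 and 0.49 in PC14CDDP. Probes of H2B genes share sequence, so the 17 do not count as independent measurements. Next to H2AFV, the lowest adjusted p values were those of H2BFM at 0.80 (SD 0.10, adjusted p = 0.086), HIST1H3B at 0.74 (SD 0.15, adjusted p = 0.097) and HIST1H2AL at 0.72 (SD 0.16, adjusted p = 0.11). HIST1H2BF at 1.10 and HIST1H2BK at 0.58 lay above 0, and H2AFJ at -0.37 and H1FX at -0.29 below 0, in all 3 lines without passing.

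The genes most alike across the 12 arrays, once the mean of each line was taken off, were listed for 4 histone genes as a description. For H2AFZ they were LOC100292905, CLDN7 and OXT, with Pearson's r of 0.98, 0.97 and 0.96. For HIST1H2BK they were CNTD1, ZNF605 and ADORA2A, at 0.95, 0.94 and 0.92. For HIST1H1C they were ARAP2, CREBRF and LOC653075, at 0.95, 0.94 and 0.93. For H3F3B only COPS8, at 0.94, had a gene name among the 3 nearest. The points share 12 arrays and 4 transfections, and none of the nearest genes was a histone gene.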

How the data were processed

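Total RNA of the 12 samples was labelled with Cy3 and hybridised to 1-colour Agilent arrays. The submitters' processing notes name Agilent Feature Extraction 10.7.3.1, and the authors deposited its background-subtracted signal intensity and a value table, which equals that intensity on every spot. The array number limits the precision. Control and outlier spots were left out, spots of 1 probe averaged, and each array scaled to its 75th percentile and taken to log2. Probes well above background on at least 3 of 12 arrays were kept, with the brightest probe for a gene. Genes were named through RefSeq accessions (55.7% of 50599 probes matched). limma 3.58.1 (R 4.3.3) fitted all 12 arrays with the line as block, since same-line arrays deviated together (correlations of 0.848 to 0.949). Named genes were those called (up to 15), the 5 largest consistent ratios each way and a fixed list, and further genes named to complete a histone type or list were chosen after their values were seen. Members, lists and tests were chosen with earlier results of these data known. On simulated data with 200 genes changed by 2 on the log2 scale, 167 were recovered, with 8 false calls (premiR-197 against NC, 24857 genes). Histone ratios in that comparison ran from -0.86 to 0.70, and recovery of changes that small was not simulated.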

Additional observations from a re-analysis of the deposited data

How the results depend on the processing

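Counts of histone genes called in PC14CDDP against PC14 stayed between 45 and 62 under all alternatives, which called 37.3% to 56.7% of all genes. They were between 45 and 52 when 1 transfection was left out, where 37.8% to 44.6% of all genes were called. Without the replicate block the count was 45 there and 0 in LNA-miR-197 against LNA-NC, where 4 were called with it. In that comparison the count was also 0 with the slide as the block, with only the arrays compared, with the methods' t-test and when any 1 line was left out (0 to 0), settings under which at most 4 of all 24857 genes were called. It was 1 with no filter on dim probes, where 1.43% of all genes were called. It was 7 with a trend and robust prior (13% of all genes) and 27 with NC as the control (14.8%). For premiR-197 against NC it was 3 with normexp correction, 3 with genes above background on all 12 arrays and 4 with the trend and robust prior, where these called 2.19%, 2.5% and 2.08% of all genes. For LNA-NC against NC it was 1 (H2BFM) on all 12 arrays and 1 (HIST2H3A) with the trend, which called 1.09% and 1.16% of all genes. For the difference it was 2, 3 and 3 under normexp, all 12 arrays and the trend, which called 2.31%, 2.87% and 2.56% of all genes. The methods' t-test gave, at its unadjusted threshold, 58 histone genes in PC14CDDP against PC14, 21 in LNA-NC against NC and 16 for the inhibitor. It gave 4 for the precursor and 14 for the difference. The share of all genes at that threshold is not given here, so these counts cannot be set against a background. After Benjamini-Hochberg adjustment the t-test called 49 histone genes in PC14CDDP against PC14, where 38.9% of all genes passed. In the other comparisons it called 0 histone genes and at most 0.00402% of all genes.

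With NC as the control of LNA-miR-197 the median was -0.34 over clustered genes and -0.18 over variants, and H2AFV turned to -0.18. The variant median in that comparison ranged from -0.11 to -0.032 with 1 line left out. In PC14CDDP against PC14 the variant median was 0.24 and the H2B median -0.83 with the mean of a gene's probes, the H2B median was -0.57 with quantile normalization, and the H4 median was 0.56 on genes above background on all 12 arrays. With the mean of the probes HIST1H3H turned to -0.48 and HIST1H2AC to 0.17, a mean of 3 probes of which 1 was not above background in either line. The cause was not tested. With no filter the median of all genes was 0.14 in PC14CDDP against PC14. A fit on only the arrays compared was not run for the difference, which uses all 12 arrays.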
